A study of Rattus norvegicus with 8 samples.

Results

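Nfe2, Gata1, Klf1, Tal1, Lyl1 and Gfi1b are transcription factors of the red cell and platelet lineages. They were picked by gene symbol from the deposited table, as 6 of its 18090 genes, and all 6 were found. The choice was made with earlier results of these same libraries known, among them the higher levels of several of these genes after FeCl3, so their differences between the groups are given as a description, with no test. The samples were abdominal aortas of wild-type rats, 4 exposed for 5 min to filter paper with 10% FeCl3 laid around the vessel and 4 to filter paper with 0.9% saline. Ferric chloride laid on a vessel damages its lining, and a clot forms on the damaged wall. The study asked how the RNA of an aorta with such a clot differs from that of a saline-exposed one. By the labels the replicates are biologically independent and all 8 belong to 1 batch, while age, sex and the hour of harvest are not stated in the sources used here.

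Levels are in FPKM, the mapped fragments of a gene scaled to its length and to the library's total. The libraries held 24304434 to 30283292 fragments, by totals recovered from the FPKM values. The tissue label was matched by 8 smooth muscle markers, whose summed FPKM was 3843 to 11036 in FeCl3 libraries and 5047 to 27287 in saline libraries. Saline replicate 4 stood apart from the other controls. Haemoglobin genes took 16.4% to 34.1% of all fragments in FeCl3 libraries, against 16.5% in saline replicate 4 and 1.30% to 1.63% in saline replicates 1, 2 and 3. In whole-tissue RNA a larger number of blood cells and more RNA per blood cell cannot be told apart.

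GATA1 is a zinc finger protein that binds GATA motifs and is required for both red cells and megakaryocytes, the cells that shed platelets. TAL1 and LYL1 are related basic helix-loop-helix proteins that bind E-box motifs with E proteins and join GATA1 through the bridging proteins LMO2 and LDB1. KLF1 binds CACCC motifs and switches on globin and other red cell genes. NFE2 pairs with small MAF proteins and drives late megakaryocyte genes and platelet release, and GFI1B is a repressor that recruits the histone demethylase KDM1A. Circulating reticulocytes and platelets have no nucleus but still carry messenger RNA made earlier by their precursors.

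Since these factors are known to act on one another's genes, the promoters of the members were read for their motifs. RefSeq's promoter table (rat build GRCr8) held 5 of the 6 members, and Nfe2 was not among them. Each window spans 250 bases before the gene's start and 50 bases from it. The promoters of Klf1, Lyl1 and Gfi1b are shown because they hold a GATA motif, which is in capitals, either as TGATAA or AGATAA or as their reverse complements TTATCA and TTATCT.
Lyl1, chr19:40359785-40360084, minus strand: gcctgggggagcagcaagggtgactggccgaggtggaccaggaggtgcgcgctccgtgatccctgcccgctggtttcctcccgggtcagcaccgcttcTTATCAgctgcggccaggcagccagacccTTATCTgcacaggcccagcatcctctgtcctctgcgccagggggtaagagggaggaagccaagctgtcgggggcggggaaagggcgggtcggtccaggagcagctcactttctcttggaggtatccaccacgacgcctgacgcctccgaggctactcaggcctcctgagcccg
Klf1, chr19:40158602-40158901, minus strand: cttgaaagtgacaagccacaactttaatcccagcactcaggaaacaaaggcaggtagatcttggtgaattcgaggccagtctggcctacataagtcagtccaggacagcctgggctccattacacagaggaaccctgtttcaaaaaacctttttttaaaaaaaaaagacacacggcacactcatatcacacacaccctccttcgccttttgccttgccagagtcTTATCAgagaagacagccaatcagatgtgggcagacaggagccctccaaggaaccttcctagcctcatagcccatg
Gfi1b, chr3:32350852-32351151, minus strand: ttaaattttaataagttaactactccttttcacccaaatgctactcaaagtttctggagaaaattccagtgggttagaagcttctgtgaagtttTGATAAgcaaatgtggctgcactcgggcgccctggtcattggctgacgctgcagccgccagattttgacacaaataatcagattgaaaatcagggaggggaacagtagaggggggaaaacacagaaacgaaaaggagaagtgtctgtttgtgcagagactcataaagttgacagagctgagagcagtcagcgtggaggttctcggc

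Of the 5 promoters, 3 held a GATA motif on either strand, searched as AGATAA, then as AGATAG, as the letters TGATAA, and lastly as TGATAG, against 30.3% of 33469 promoters of the same length. Lyl1 held 2 such motifs, and 7.94% of all promoters held 2 or more. The first of the pair, at -152 to -147 from the start, shares its last bases with the E-box CAGCTG at -148 to -143. The single GATA motif of Klf1 lay at -26 to -21, and that of Gfi1b at -156 to -151. CACCC, the letters that KLF1 binds, searched on both strands, was in 4 of the 5 promoters (Gata1, Klf1, Lyl1 and Gfi1b), against 54.9% of all. CANNTG, the E-box, was in 4 (Klf1, Tal1, Lyl1 and Gfi1b), against 72.1%. AAATCA, a core bound by GFI proteins, was in Gfi1b alone, against 14.5% of all, and TGAGTCA, the core bound by NFE2 with MAF partners, was in 0 of the 5, against 4.63%. These are matches of letters in short windows and show no binding.

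All 6 factors had higher mean FPKM after FeCl3 than after saline, where 29.8% of all tested genes had a positive log2 fold change, and for each of the 6 saline replicate 4 was the highest control. No gene of the 11921 tested passed a Benjamini-Hochberg adjusted p of 0.05 in limma (0% called, and 16.6% at an unadjusted p under 0.05), so 0 of the 6 members passed. At an unadjusted p under 0.05 there were 5 members, all but Tal1, from which nothing is read since the members were chosen on this contrast. limma voom on the recovered fragments also called 0 genes, with 17.4% at an unadjusted p under 0.05. A gene was tested if it had at least 1 FPKM in at least 4 libraries. All 6 members met this, but Gata1, Klf1 and Gfi1b did so only through the FeCl3 libraries and saline replicate 4. Fold changes below are on the log2(FPKM + 1) scale, with a median of -0.25 over all tested genes and of 2.78 over the members. That overall median was -0.90 after rescaling to TPM and 0.01 with haemoglobin left out of the total, so a list median near 0 has no direction of its own and is to be read against -0.25.

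**Figure D1:**
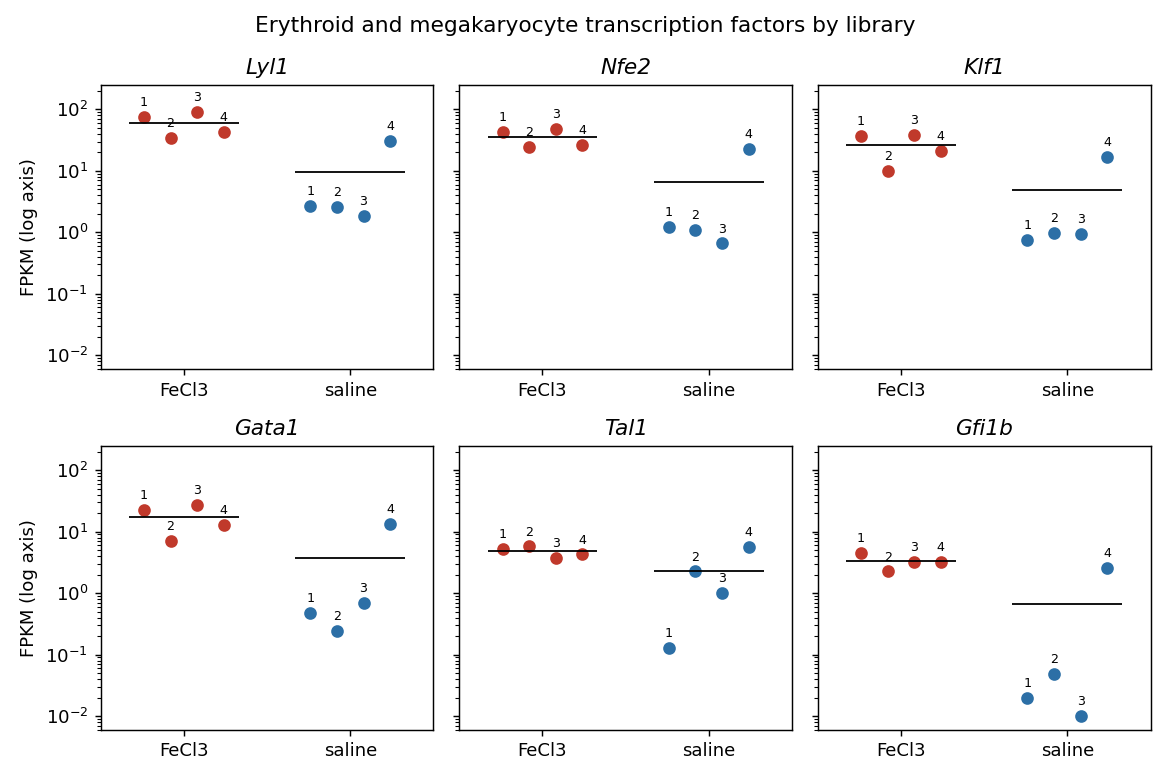
FPKM of each factor (log axis) in FeCl3 and saline libraries, 1 point per library with its replicate number and the group mean as a line (n = 4 each). Saline replicate 4 sits near the FeCl3 libraries in all 6 panels, and the other controls sit lower, with Gfi1b at 0.00992 to 0.0490 FPKM.

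GATA1's gene stood at 22.4, 7.01, 27.1 and 12.8 FPKM in FeCl3 replicates 1 to 4, against 0.479, 0.243, 0.698 and 13.5 FPKM in saline replicates 1 to 4. The groups overlapped, because saline replicate 4 lay above FeCl3 replicates 2 and 4. Means were 17.3 ± 9.09 FPKM after FeCl3 and 3.73 ± 6.51 FPKM after saline (SD, n = 4 each), a log2 fold change of 2.66 ± 0.79 SE, or 3.49 ± 0.45 SE without saline replicate 4. The low controls rested on 27, 11 and 39 fragments of Gata1, against 635 in saline replicate 4. In RefSeq's GRCr8 annotation the span of the long non-coding RNA LOC102554502 overlaps that of Gata1. Their exons and strands were not compared and the strand setting is not stated, so whether the pair shares reads is not known.

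Klf1, the red cell factor of CACCC motifs, measured 36.9, 10.0, 38.5 and 21.1 FPKM in the FeCl3 libraries, against 0.754, 0.966, 0.934 and 16.8 FPKM in the saline libraries. FeCl3 replicate 2 was the lowest of its group for Klf1 as it was for Gata1, and saline replicate 4 again lay within the FeCl3 range. Klf1 averaged 26.6 ± 13.6 FPKM after FeCl3 and 4.86 ± 7.95 FPKM after saline (SD, n = 4 each), with a log2 fold change of 2.90 ± 0.78 SE, or 3.71 ± 0.46 SE without saline replicate 4.

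Nfe2, the platelet-forming factor, had 43.4, 24.4, 47.5 and 26.6 FPKM after FeCl3, against 1.23, 1.09, 0.659 and 23.1 FPKM after saline. Every FeCl3 library lay above every control, by a narrow gap between FeCl3 replicate 2 and saline replicate 4. Its means were 35.5 ± 11.7 FPKM after FeCl3 and 6.52 ± 11.1 FPKM after saline (SD, n = 4 each), and its log2 fold change was 3.25 ± 0.79 SE, or 4.15 ± 0.31 SE without saline replicate 4. Nfe2 varied less among the FeCl3 libraries than Gata1 or Klf1: the highest was 1.95 times the lowest for Nfe2, 3.86 times for Gata1 and 3.83 times for Klf1.

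Lyl1 was the most abundant of the 6, with 74.3, 34.3, 91.2 and 42.6 FPKM after FeCl3, against 2.69, 2.59, 1.83 and 30.8 FPKM after saline. Its groups did not overlap either, with FeCl3 replicate 2 just above saline replicate 4. It averaged 60.6 ± 26.7 FPKM after FeCl3 and 9.47 ± 14.2 FPKM after saline (SD, n = 4 each), a log2 fold change of 3.28 ± 0.75 SE, or 4.09 ± 0.38 SE without saline replicate 4. Nfe2 and Lyl1 were thus the 2 members without overlap, beside 126 of 11921 tested genes that were higher without overlap (1.06%). That count depended on scaling, in a comparison added after the data were seen, as 0 members were without overlap when FPKM were rescaled to TPM (9 of all tested genes) and 3 with median-of-ratios scaling (Nfe2, Lyl1 and Gfi1b, among 505 genes).

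Tal1, the relative of Lyl1, had the smallest difference of the 6. It measured 5.30, 5.76, 3.70 and 4.25 FPKM after FeCl3, against 0.127, 2.25, 1.01 and 5.70 FPKM after saline. The controls were spread over the whole range, with saline replicate 4 next to the highest FeCl3 library and saline replicate 1 far below the rest. The means of 4.75 ± 0.945 FPKM after FeCl3 and 2.27 ± 2.45 FPKM after saline (SD, n = 4 each) gave a log2 fold change of 1.10 ± 0.49 SE, or 1.55 ± 0.38 SE without saline replicate 4.

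Gfi1b, the repressor, was the least abundant, at 4.46, 2.25, 3.25 and 3.17 FPKM after FeCl3, against 0.0197, 0.0490, 0.00992 and 2.55 FPKM after saline. Saline replicates 1, 2 and 3 held only 2, 4 and 1 fragments of Gfi1b, with exact Poisson 95% intervals of 0.242 to 7.22, 1.09 to 10.2 and 0.0253 to 5.57 fragments, which cover counting error only. FeCl3 libraries held 207 to 393 fragments and saline replicate 4 held 217, inside that range. Means were 3.28 ± 0.906 FPKM after FeCl3 and 0.658 ± 1.26 FPKM after saline (SD, n = 4 each). The log2 fold change was 1.59 ± 0.43 SE, or 2.04 ± 0.25 SE without saline replicate 4. The added 1 FPKM compresses a gene this low, and voom on the fragments gave 5.34 ± 1.36 SE for Gfi1b and 2.20 ± 0.87 SE for Tal1.

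The order of the 6 levels was the same in 6 of the 8 libraries: Lyl1 highest, then Nfe2, Klf1, Gata1, Tal1 and Gfi1b. It held in all 4 FeCl3 libraries and in saline replicates 1 and 4. Between neighbours in that order the ranges over the FeCl3 libraries overlapped for Lyl1 and Nfe2, for Nfe2 and Klf1, for Klf1 and Gata1, and for Tal1 and Gfi1b, while Gata1 lay above Tal1 in every FeCl3 library, with its lowest value above Tal1's highest. In saline replicates 2 and 3 Tal1 came second, and in saline replicate 3 Nfe2 came after Klf1 and Gata1. Among all 18090 genes the FeCl3 means ranked from 992 for Lyl1 to 8845 for Gfi1b, and the saline means from 5825 to 13097 for the same 2 genes.

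Set against their own sum, the 6 factors had a similar make-up in the FeCl3 libraries and saline replicate 4, and a less steady one in the other controls. The sum itself differed widely over all libraries. The summed FPKM was 187, 83.8, 211 and 111 in FeCl3 replicates 1 to 4, against 5.30, 7.197, 5.14 and 92.4 in saline replicates 1 to 4. Lyl1 made up 38.6% to 43.2% of it in the FeCl3 libraries and 33.3% to 50.8% in the saline libraries. Tal1 stood out, with 1.75% to 6.88% in the FeCl3 libraries, against 31.3% in saline replicate 2, 19.7% in saline replicate 3, and 2.39% and 6.17% in saline replicates 1 and 4. Gfi1b made up 1.54% to 2.86% in the FeCl3 libraries, against 0.371%, 0.681% and 0.193% in saline replicates 1, 2 and 3. Nfe2 made up 22.5% to 29.1% in the FeCl3 libraries, against 15.1% and 12.8% in saline replicates 2 and 3. Gata1 was down to 3.38% in saline replicate 2.

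**Figure D2:**
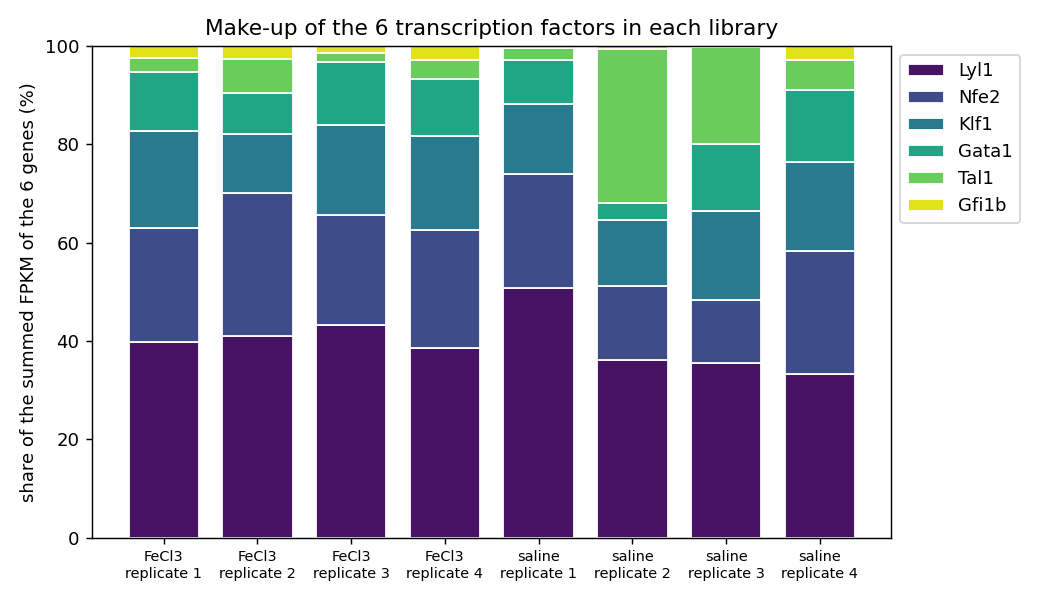
Share of each factor (%) in the summed FPKM of the 6, 1 bar per library, FeCl3 libraries left and saline libraries right. Tal1 takes 31.3% and 19.7% in saline replicates 2 and 3, and at most 6.88% in any other library.

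The levels of the 6 were set beside Alas2, the enzyme that starts haem synthesis in red cell precursors and the most abundant non-globin gene of the red cell list. Alas2 was at 2267, 834, 2984 and 1435 FPKM in the FeCl3 libraries, against 84.4, 49.9, 71.1 and 1161 FPKM in the saline libraries, a range of 59.8 times. Per 100 FPKM of Alas2, Lyl1 was at 2.97 to 4.12 FPKM in the FeCl3 libraries and 2.57 to 5.20 in the saline libraries, so the ratio varied 2.03 times over all 8. For Klf1 it was 1.20 to 1.63 and 0.893 to 1.94, a variation of 2.17 times. Gata1 stood at 0.841 to 0.990 in FeCl3 libraries and 0.488 to 1.16 in saline libraries, varying 2.38 times, and for Nfe2 the figures were 1.59 to 2.93, 0.926 to 2.19 and 3.16 times. Thus levels that differed by 49.9 times for Lyl1 and 51.0 times for Klf1 differed far less as a ratio to Alas2. Tal1 did not share this, with 0.124 to 0.691 in FeCl3 libraries and 0.150 to 4.52 in saline libraries, a variation of 36.4 times. Gfi1b, with its few fragments in the low controls, varied 19.4 times.

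The steadiness of these ratios depended on the gene they were set beside. As a ratio to the summed FPKM of the haemoglobin genes, Gata1 varied 4.71 times over all 8 libraries, Nfe2 3.84, Klf1 3.12 and Lyl1 2.37 times, each more than as a ratio to Alas2. Per 10000 FPKM of haemoglobin, Lyl1 was at 1.21 to 1.68 FPKM in the FeCl3 libraries and 0.708 to 1.15 in the saline libraries. The gap between the groups was narrow. The share of all genes without overlap in this ratio was not worked out, so nothing is read from the gap. For Nfe2 the ratio was 0.770 to 0.982 in FeCl3 libraries and 0.256 to 0.813 in saline libraries, with overlap through saline replicate 4. Among the FeCl3 libraries alone Nfe2 varied less against haemoglobin (1.28 times) than against Alas2 (1.84 times), and Gata1 more (2.05 against 1.18 times).

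**Figure D3:**
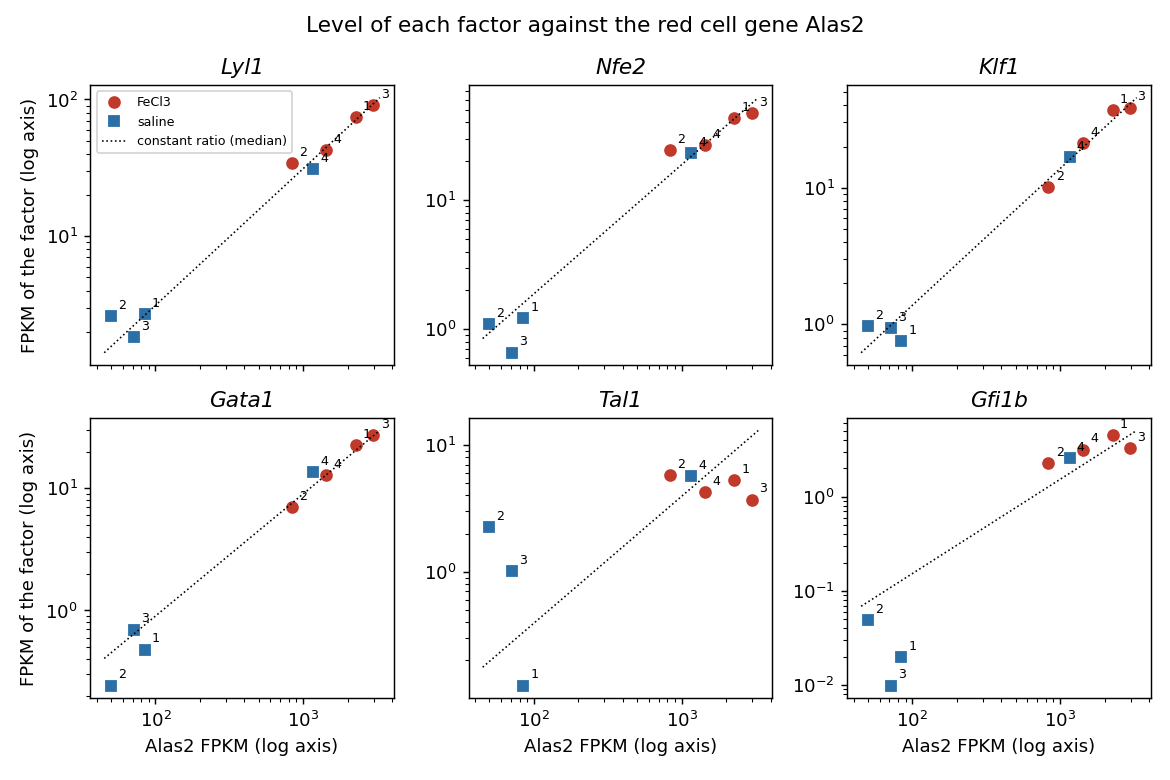
FPKM of each factor against FPKM of Alas2 (both log axes), 1 point per library with its replicate number, FeCl3 as circles and saline as squares. The dotted line is the median ratio. Lyl1, Nfe2, Klf1 and Gata1 lie near it, and Tal1 varies 36.4 times around it.

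Pf4, a platelet granule chemokine and the most abundant gene of the platelet list, gave another picture among the FeCl3 libraries. It was highest in FeCl3 replicate 2, at 2429 FPKM, where Gata1, Klf1, Lyl1, Nfe2 and Gfi1b had their lowest FeCl3 values and Tal1 its highest. Across the 4 FeCl3 libraries the ratio to Pf4 varied 8.48 times for Klf1, 7.38 for Gata1, 4.99 for Lyl1, 4.57 for Gfi1b and 4.10 for Nfe2, and the ratio to Alas2 varied 1.35, 1.18, 1.39, 2.48 and 1.84 times for the same genes. Tal1 went the other way, varying 2.12 times against Pf4 and 5.57 times against Alas2. These ratios describe 4 libraries and were not tested.

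Lyl1 and Nfe2 were each other's nearest gene among the 11921 tested, with a root-mean-square difference of 0.16 between their log2(FPKM + 1) values over the 8 libraries, each centred on its own mean. Gata1's nearest gene was Klf1, at 0.19, and Klf1's nearest was Epb42, a red cell membrane protein, also at 0.19. Outside the 6, Nfe2 lay nearest to the alpha globins Hba-a1 (0.20) and Hba-a2 (0.23) and to Car2, carbonic anhydrase 2 (0.24). Lyl1 lay nearest to Hba-a2, Hba-a1 (0.17 each) and Ybx3, an RNA-binding cold shock protein (0.20). For Gata1 they were Slc22a4, Mkrn1 and Ybx3 (0.23 to 0.25), for Klf1 Epb42, Ybx3 and Bpgm, which makes bisphosphoglycerate in red cells (0.19 to 0.25), and for Gfi1b Rhag, the Rh-associated glycoprotein, LOC103689947 and Marchf2 (0.19 to 0.20). Tal1 lay nearest to genes known from other cells: Irf5 and Ly86, known from myeloid cells, and Fap, fibroblast activation protein (0.19 to 0.21). Near-identical alpha globin genes can share reads. With 0.1 FPKM added in place of 1, a setting chosen after the data were seen, 5 of these 18 places were held by the same genes and 16 of the 18 genes were among the nearest 50. The other 2, LOC103689947 and Marchf2, both belong to Gfi1b and came at places 370 and 372, so 1 of Gfi1b's 3 nearest genes, Rhag, stayed near it.

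The proteins that complete these complexes were tested as 16 partner genes. Of the 16, 6 had a positive and 10 a negative log2 fold change, with a median of -0.30. None passed in limma or voom, and at an unadjusted p under 0.05 in limma there were 3, all lower, beside 12.2% of all tested genes lower. Lmo2 is the bridge between TAL1 and LDB1. It measured 36.6, 25.2, 26.8 and 27.5 FPKM in the FeCl3 libraries, against 0.624, 21.1, 5.82 and 25.5 FPKM in the saline libraries, and limma gave it an adjusted p of 0.310 at a log2 fold change of 1.73 ± 0.79 SE. As with Tal1, saline replicate 4 and saline replicate 2 stood above the other controls. Ldb1, the other bridging protein, measured 24.3, 14.1, 19.0 and 59.6 FPKM in the FeCl3 libraries, against 13.2, 22.7, 22.0 and 20.4 FPKM in the saline libraries. Its higher FeCl3 mean of 29.3 ± 20.7 FPKM, against 19.6 ± 4.39 FPKM after saline (SD, n = 4 each), rested on FeCl3 replicate 4, since 2 of the other 3 FeCl3 libraries lay below the saline mean. The deacetylases Hdac1 and Hdac2 had log2 fold changes of -0.32 and -0.19.

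Further partners named after their values were seen bear on single members. Zfpm1, the cofactor FOG1 that GATA1 needs, had 6.10 ± 2.47 FPKM after FeCl3 and 5.57 ± 3.35 FPKM after saline (SD, n = 4 each), with a limma adjusted p of 0.809 at a log2 fold change of 0.25 ± 0.49 SE. Mafg, a small MAF partner of NFE2, had 5.34 ± 1.47 FPKM after FeCl3 and 12.2 ± 3.73 FPKM after saline (log2 fold change -1.04 ± 0.27 SE, limma adjusted p = 0.245). Kdm1a, the demethylase that GFI1B recruits, had 8.22 ± 1.70 FPKM after FeCl3 and 13.9 ± 1.60 FPKM after saline (log2 fold change -0.71 ± 0.21 SE, limma adjusted p = 0.245). Mafg and Kdm1a were the 2 of 16 partners whose FeCl3 values all lay below the saline values, beside 8.75% of all tested genes.

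Family relatives of the 6 share their DNA-binding domains. Of 15 such genes, 9 were tested, with 3 positive and 6 negative log2 fold changes and a median of -0.24, and 0 passed in limma or voom. At an unadjusted p under 0.05 in limma 1 was higher and 1 lower, beside 4.42% and 12.2% of all tested genes. Klf2, an endothelial and lymphocyte relative of Klf1, had 88.7 ± 42.0 FPKM after FeCl3 and 38.1 ± 16.2 FPKM after saline, and Nfe2l1, a widely expressed relative of Nfe2, had 31.3 ± 10.4 FPKM after FeCl3 and 50.4 ± 10.8 FPKM after saline (SD, n = 4 each). Their log2 fold changes were 1.12 ± 0.45 SE (limma adjusted p = 0.279) and -0.70 ± 0.27 SE (adjusted p = 0.273). Nfe2l2, the antioxidant factor NRF2, stood at -0.28 and Klf4 at 0.42. Gfi1, the relative of Gfi1b in white cells, lay below the filter, at 0.0136 to 0.511 FPKM after FeCl3, against 0.0807 FPKM in saline replicate 4 and 0 in the other controls.

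Other regulators of blood cell formation made up a list of 18 genes. Of these, 16 were tested, 8 with positive and 8 with negative log2 fold changes around a median of 0.00, and 0 passed in limma or voom. At an unadjusted p under 0.05 in limma 1 was higher and 2 lower, beside 4.42% and 12.2% of all tested genes. The 4 most abundant were Cbfb, the partner of RUNX proteins (0.30), Erg (-0.41), Stat5b (-0.09) and E2f4 (-0.23). Erg, also a factor of endothelium, had 12.97 ± 4.23 FPKM after FeCl3 and 16.9 ± 0.989 FPKM after saline (SD, n = 4 each).

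Red cell and platelet genes include many known targets of these factors. Of 33 red cell genes, 32 were tested, 30 with a positive and 2 with a negative log2 fold change, and their median was 2.27. Of 19 platelet genes found, 18 were tested, with 16 positive, 2 negative and a median of 1.66. In limma and in voom 0 genes of either list passed. At an unadjusted p under 0.05 in limma there were 24 red cell genes higher and 1 lower, and 11 platelet genes higher, beside 4.42% of all tested genes higher and 12.2% lower. Many of these genes were among the results known when the members were chosen. Among the most abundant, Hbb, the beta globin, had a log2 fold change of 1.57 ± 0.98 SE and Hbb-b1 2.13 ± 0.93 SE, below the 3.32 of both Hba-a1 and Hba-a2. Hbb was at 9007.8, 58930.6, 17833.2 and 62418.5 FPKM in FeCl3 replicates 1 to 4. Hbb and Hbb-b1 were thus lowest in FeCl3 replicates 1 and 3, where Hba-a1 and Hba-a2 were highest. Hbb-bs, another beta globin gene, did not share this split. It was at 1289, 4224, 8337 and 4118 FPKM in FeCl3 replicates 1 to 4, so highest in FeCl3 replicate 3. Its log2 fold change was 3.15 ± 1.08 SE. The cause of these differences among globin genes was not tested. Itga2b, the platelet integrin, had 31.9 ± 8.98 FPKM after FeCl3 and 8.87 ± 14.9 FPKM after saline (SD, n = 4 each), and Clec1b and F13a1 had log2 fold changes of 3.09 ± 1.08 SE and 2.66 ± 0.95 SE.

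**Figure D4:**
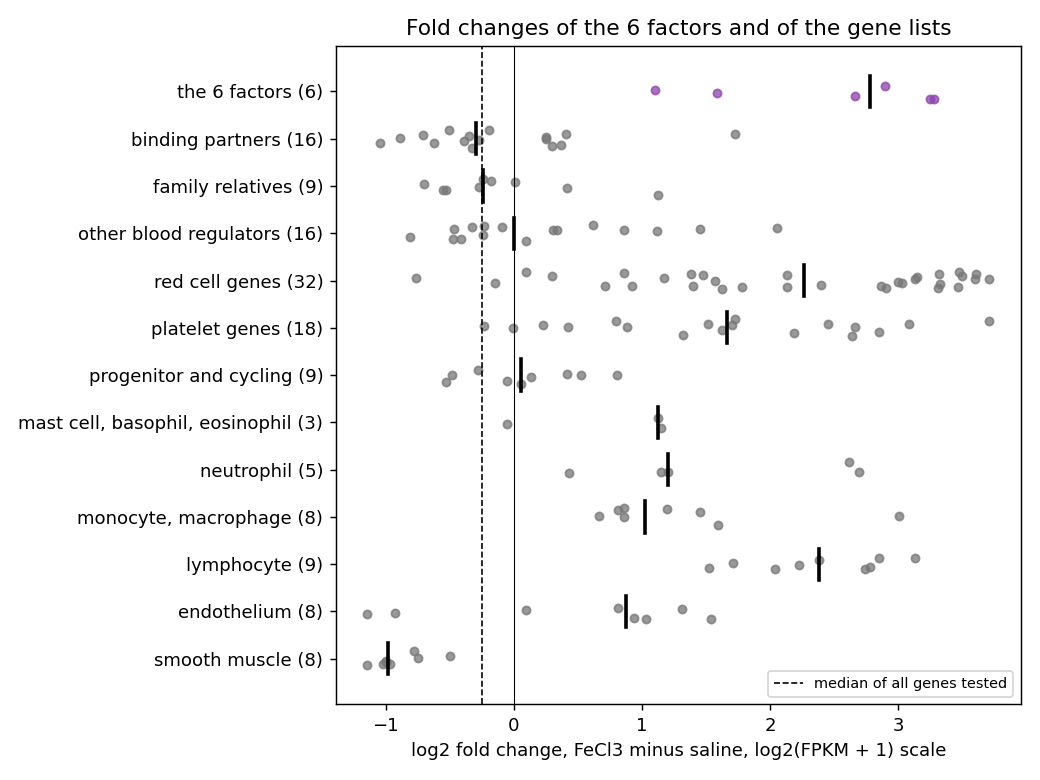
Log2 fold changes, FeCl3 minus saline, on the log2(FPKM + 1) scale for the tested genes of each list (number tested in brackets). Points are genes, bars list medians, and the dashed line the median of all tested genes. The 6 factors have a median of 2.78, binding partners -0.30 and family relatives -0.24.

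Markers of early blood precursors and of dividing cells made up another list. Of its 9 tested genes 5 were positive and 4 negative, with a median of 0.05, and 0 passed in limma or voom (0 at an unadjusted p under 0.05 in limma). Gata2, the GATA factor of early precursors, mast cells and endothelium, had 5.53 ± 3.79 FPKM after FeCl3 and 12.4 ± 10.4 FPKM after saline (SD, n = 4 each). Tfrc, the transferrin receptor that growing red cell precursors need, had 5.08 ± 1.12 FPKM after FeCl3 and 10.6 ± 8.64 FPKM after saline. Cdk1, a cell cycle kinase, had a log2 fold change of 0.13 ± 0.41 SE and Cd34 0.81 ± 0.77 SE.

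Several of the 6 are also known from other cells: Gata1 and Tal1 from mast cells, Lyl1 and Tal1 from endothelium, Lyl1 from B cells and macrophages, and Nfe2 from neutrophils. Mast cell, basophil and eosinophil markers were low, with a summed FPKM of 3.21 to 46.1 in the FeCl3 libraries and 1.29 to 17.6 in the saline libraries. The highest sum was in FeCl3 replicate 1, which had the second highest Gata1 (22.4 FPKM), with the mast cell proteases Cpa3 and Cma1 at 17.3 and 17.2 FPKM. The lowest FeCl3 sum was in FeCl3 replicate 3, which had the highest Gata1 (27.1 FPKM), with 6 of the 11 genes at 0. Over the groups Cpa3 and Cma1 had log2 fold changes of 1.15 ± 0.82 SE and 1.13 ± 0.81 SE, the receptor gene Kit -0.05 ± 0.34 SE, and Tpsb2 lay below the filter. Neutrophil markers summed to 58.3 to 148 FPKM after FeCl3, against 101 FPKM in saline replicate 4 and 0.378 to 52.5 FPKM in the rest. Of the tested genes 5 of 5 were positive, among them S100a8 (2.69), S100a9 (2.61), Csf3r (1.20) and Mpo (0.43 ± 1.27 SE) by log2 fold change. Mpo was highest in saline replicate 2, at 41.8 FPKM of that library's sum of 52.5 FPKM. It was at 9.50 FPKM in saline replicate 4 and at 0.466 to 26.9 FPKM in the FeCl3 libraries. Lymphocyte markers summed to 49.3 to 432 FPKM after FeCl3, against 87.6 FPKM in saline replicate 4 and 0.318 to 13.01 FPKM in the rest, with 9 of 9 positive, among them the T cell genes Cd3e (2.85) and Cd3g (3.13) and the B cell genes Cd79a (2.78) and Cd79b (2.74). Monocyte and macrophage markers summed to 211 to 699 FPKM after FeCl3, against 488 FPKM in saline replicate 4 and 8.85 to 87.0 FPKM in the rest, with 8 of 8 positive, among them Lyz2 (3.01), Csf1r (1.59), C1qa (1.46) and Cd14 (0.66). Saline replicate 4 thus stood with the FeCl3 libraries in these 3 white cell lists as it did in the 6 factors, and 6 of the 9 lymphocyte markers were at 0 in saline replicate 1. The part of these cells in the levels of the 6 factors was not tested.

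Endothelial markers were arranged differently. They summed to 162 to 235 FPKM in the FeCl3 libraries, against 10.3, 288, 93.3 and 218 FPKM in saline replicates 1 to 4, with 6 of 8 genes positive, among them Emcn (1.54), Pecam1 (1.31), Tek (1.04) and Tie1 (0.81) by log2 fold change. Saline replicate 2 was the highest of all libraries and saline replicate 1 the lowest. With saline replicate 4 set aside, the order of the controls from highest to lowest was saline replicate 2, 3 and 1, as it was for Tal1 and Lmo2. The summed neutrophil, lymphocyte, and monocyte and macrophage markers had this order too, as did those of mast cells, basophils and eosinophils. The order is therefore not particular to endothelium. The part of endothelium in the Tal1 values was not tested. In these 5 lists of other cell types and in the smooth muscle list, where 8 of 8 genes were negative with a median of -0.98 (Myh11 and Cnn1 -0.996 each, Acta2 -0.75 and Tagln -0.49), 0 genes passed in limma or voom. At an unadjusted p under 0.05 in limma, 2 of 5 neutrophil, 1 of 8 monocyte and macrophage and 8 of 9 lymphocyte genes were higher, beside 4.42% of all tested genes. Of the 8 smooth muscle genes 1 was lower, beside 12.2% of all tested genes.

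The genes next to the 6 on the chromosome were picked by position alone, after the data were seen, as the nearest measured protein-coding gene on either side in RefSeq's GRCr8 order. Of 12 neighbours 9 were tested, 2 with a positive and 7 with a negative log2 fold change, from -1.01 to 0.56, with a median of -0.11. In limma 0 passed (0 in voom over all genes). An unadjusted p under 0.05 in limma was seen for 2, both lower, beside 12.2% of all tested genes lower. The lowest, at -1.01, was LOC108348065, next to Gata1. Below the filter lay Glod5, on the other side of Gata1, and Stil and Pdzk1ip1, which flank Tal1. Their FeCl3 and saline means were 0.635 and 0.187 FPKM, 0.222 and 0.226 FPKM, and 0.239 and 0.115 FPKM. Glod5 was at 0.594 FPKM in saline replicate 4 and at 0.0188 to 0.106 FPKM in saline replicates 1 to 3. Hnrnpa1 and Copz1, which flank Nfe2, had log2 fold changes of 0.02 ± 0.29 SE and -0.01 ± 0.27 SE. Dnase2 and Gcdh, which flank Klf1, had 0.56 ± 0.54 SE and -0.11 ± 0.54 SE, and Nfix and Trmt1, which flank Lyl1, had -0.79 ± 0.31 SE and -0.08 ± 0.33 SE.

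Without saline replicate 4, limma called 160 of 11921 genes (1.34%), 150 of them higher after FeCl3 (1.26%). The called genes included 5 of the 6 members, all but Tal1, together with 19 of 32 red cell genes, 9 of 18 platelet genes, 0 of 16 partners, 0 of 9 family relatives and 1 of 16 other regulators, which was Spi1. Among white cell markers they included 1 of 5 neutrophil genes (S100a9) and 2 of 9 lymphocyte genes (Cd79a and Cd79b). Leaving out the control with the highest level of each member favours such calls, and the members were chosen with this known, so nothing is read from the count of members. In the red cell, platelet, neutrophil and lymphocyte lists, too, saline replicate 4 had the highest summed FPKM of the controls. Nothing is read from their counts either.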

How the data were processed

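PolyA RNA was profiled in 8 rat aorta libraries, 4 per group, grouped by the treatment label. FPKM values were deposited by the authors for every gene and library. Tools listed in the submitters' processing notes are HISAT2, HTSeq and fastp, with the build mRatBN7.2. Their versions, the annotation and the strand setting are not given in the sources used here. Columns were matched to samples by title. Low FPKM values come in steps of 1 fragment, from which library totals, gene lengths and fragments were recovered, whole within 0.02 for 100% of genes with a length that is a whole number of bases. The search looks for such whole numbers, so that share is largely built in. The recovered fragments and length of Hbb were doubled, because the library totals fell short by its own fragments. Recovery and fit were tested on simulated data, where 16020 of 16072 genes present in at least 4 libraries were recovered exactly. The fit called 84 of 100 genes changed 4-fold at a dispersion (spread between replicates) of 0.2, and 100 of 100 at 0.05. All 100 changed 16-fold were called at both. False calls were 6 of 190 and 17 of 217. No simulated library stood apart as saline replicate 4 did, so these rates do not carry over to the real data.

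The main test was limma 3.58.1 (R 4.3.3, trend, two-sided, Benjamini-Hochberg) on log2(FPKM + 1) for genes with at least 1 FPKM in at least 4 libraries. Alternatives were pseudocounts of 0.1 and 0.01, no filter, TPM and median-of-ratios scaling, haemoglobin left out of the total, limma voom on fragments, and each library left out. Members and lists were chosen with earlier results of these data known. Besides the 6 members, the 4 most abundant genes of each list and the 3 genes nearest each member were to be named. Of 172 list entries 171 were found. Promoters are from RefSeq, build GRCr8, matched by gene ID. The labels do not say how animals map to samples beyond biological independence. Figures were drawn with matplotlib 3.10.9.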

Additional observations from a re-analysis of the deposited data

Results flagged for a closer look

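In groups of 4, a library was marked when its gap to the nearest of the others, as a part of the group's range, exceeded Dixon's 95% critical value on the log2(FPKM + 1) scale. Chance marks about 1 in 20 independent groups. That rate is no yardstick here, since the genes share the same libraries and those nearest each member were picked for profiles like the members'. There were 18 marks from 156 groups of 78 genes, those of the naming rule and the neighbours by position. In 16 of them saline replicate 4 was the highest control. Among the 6 factors this held for Nfe2 (23.1 FPKM), Gata1 (13.5), Klf1 (16.8), Lyl1 (30.8) and Gfi1b (2.55), and not for Tal1. Red cell genes marked in the same library were Hba-a1 (148687 FPKM), Hba-a2 (55661), Hbb (52530), Hbb-b1 (20581), Epb42 (17.5), Bpgm (531) and Rhag (2.21). The others were Ybx3 (1521 FPKM), Slc22a4 (13.3), the platelet receptor gene Clec1b (122) and the mast cell protease gene Tpsb2 (1.45). In the remaining 2, saline replicate 1 was the lowest control, for Stat5b (6.14 FPKM) and Pecam1 (4.58 FPKM).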

How the results depend on the processing

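The members were chosen with this contrast known, and dropping the filter on low values leaves each log2 fold change as it was. The SD between replicates is also widened by saline replicate 4, so the counts that follow describe and do not measure stability. The log2 fold changes of the 6 factors were above 0 in all 90 combinations of a factor and an alternative, and 85 of them moved by less than 1 SD between replicates. The other 5 concern the 2 lowest genes: Gfi1b was at 3.61 and 5.04 with pseudocounts of 0.1 and 0.01 and at 5.34 with voom on fragments, and Tal1 at 2.02 with a pseudocount of 0.01 and 2.20 with voom. A smaller pseudocount compresses low values less by its construction. With a library left out the log2 fold changes ran from 2.86 to 4.15 for Nfe2, 2.31 to 3.49 for Gata1, 2.59 to 3.71 for Klf1, 0.69 to 1.55 for Tal1, 2.93 to 4.09 for Lyl1 and 1.43 to 2.04 for Gfi1b, and the median of the 6 from 2.48 to 3.60. The count of genes past the threshold was 0 in the main test, 0 to 160 with a library left out (160 only without saline replicate 4) and 3288 with FPKM rescaled to TPM, 65 higher and 3223 lower; the cause was not tested. No paired analysis was possible because the sample titles of the 2 groups share only 1 number. At 1 to 4 fragments in 3 controls, the depth sets no firm level for Gfi1b there.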

Other observations

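Some relatives and regulators outside the naming rule, singled out after their values were seen, were high in 1 or 2 libraries. In saline replicate 2, Gata2 measured 23.9 FPKM, Gata3 7.59 and Cbfa2t3, a corepressor that joins TAL1 complexes, 18.5, against 2.04 to 10.9, 0.343 to 1.56 and 0.549 to 1.21 FPKM in the FeCl3 libraries. The endothelial receptor gene Kdr was at 42.7 FPKM in the same saline library and at 0.263 to 5.45 FPKM in the FeCl3 libraries. In saline replicates 1, 3 and 4 Gata2 was at 0.131, 17.2 and 8.48 FPKM and Gata3 at 0, 2.40 and 1.33 FPKM. Cbfa2t3 was at 0.00640, 1.19 and 1.97 FPKM there, and Kdr at 0.0280, 2.91 and 9.52 FPKM. In FeCl3 replicate 4, Myb measured 3.43 FPKM and Ikzf1, a lymphoid regulator, 16.3 FPKM, where the T cell gene Cd3g was at 134 FPKM. In the other FeCl3 libraries Myb was at 0.160 to 0.242 FPKM and Ikzf1 at 1.02 to 2.56 FPKM.

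E2f2, a cell cycle factor known from late red cell precursors, was at 16.5, 4.41, 21.4 and 15.7 FPKM in the FeCl3 libraries, against 0.626, 1.32, 1.66 and 10.9 FPKM in the saline libraries (log2 fold change 2.05 ± 0.67 SE, limma adjusted p = 0.251). It was highest in FeCl3 replicate 3 and lowest of its group in FeCl3 replicate 2, as were Gata1, Klf1, Lyl1 and Nfe2.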
